A study of Mus musculus with 15 samples.

Results

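The 10 genes described here are 6 feedback genes of the Wnt pathway (Axin2, Lgr5, Rnf43, Znrf3, Notum and Nkd1) and 4 genes of the hepatocytes around the central vein (Glul, Slc1a2, Cyp1a2 and Cyp2e1). They were chosen by name, with earlier results of these data known. The transcripts of each symbol were added up, which gave 10 genes of the 35540 in the table. All 10 passed the filter on low counts, so all 10 were among the 13916 genes tested.

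Bulk RNA of mouse liver was sequenced as 15 libraries from 3 genotypes, 5 each: wild type (WT), the C247S knock-in of Txnip (C247S KI) and the Txnip knockout (KO). Every group, WT included, had 8 weeks of high-fat diet, and no library of another diet was used here. TXNIP is an arrestin-family protein that binds thioredoxin, and the knock-in swaps for serine a cysteine that bonds with it. The sources used here do not give strain, sex, age, the tissue in which the knockout acts or the hour of collection. The title of each library opens with a number of its own whose meaning is not given, and it may name an animal or a cohort. It runs in a separate range for the KO libraries, so that a cohort, if that is its meaning, and the KO genotype cannot be told apart.

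Wnt ligands and R-spondin from the endothelium of the central vein stabilise beta-catenin in the neighbouring hepatocytes, which then transcribe a pericentral programme together with Wnt inhibitors. Axin2, Rnf43, Znrf3, Notum and Nkd1 are induced by the pathway and dampen it, so their level is commonly read as its output. Glul and Slc1a2 mark the innermost ring of hepatocytes, and Cyp1a2 and Cyp2e1 a broader pericentral zone.

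Libraries held 18047577 to 23379940 estimated counts. Txnip checked the labels: its mean was 222 ± 56.2 counts-per-million (CPM) in WT, 192 ± 65.7 for C247S KI and 99.0 ± 24.9 for KO (SD, n = 5 each), so the KO libraries kept Txnip reads. KO was lower than WT by a log2 difference of -1.17 (edgeR quasi-likelihood adjusted p = 0.00887), with no overlap. The 6 hepatocyte markers found in the table summed to 84339 to 100920 CPM in WT, 72613 to 117941 for C247S KI and 50237 to 72551 for KO. Most of that sum was Alb, with means of 66438 CPM in WT and 38229 for KO. Alb was the 1 marker called lower in KO than in WT (4.19% of all tested genes were called lower). That call was lost without WT 2, 3 or 4 or KO 1, 3, 4 or 5 (adjusted p = 0.057 to 0.0945). Of the others, Apoa1 and Serpina1a had the higher mean in KO than in WT, and Ttr, Apob and Fgb the lower, and none was called. If the title numbers name animals, the 5 libraries of a group are 5 mice. No label says so, and otherwise a p-value measures only the scatter among libraries, which may be technical. In bulk RNA, fewer cells of a type and less RNA per cell cannot be told apart.

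Beta-catenin acts through TCF factors that bind DNA of the form CTTTG followed by A or T bases, and the regions around the starts of the 10 genes were therefore searched for it. RefSeq promoter windows (GRCm38.p6, 250 bases before to 50 after a start) were found for 7 of the 10 genes as 8 windows, Rnf43 having a pair. Each window was searched on both strands for 4 words of this kind: CTTTGAT as well as CTTTGAA, and further CTTTGTA as well as CTTTGTT. A word was found once each in Slc1a2, Cyp2e1 and Cyp1a2, and no match overlapped another. Those 3 windows are shown up to the first annotated transcript start, 5′ to 3′ on the gene's strand, with the word in capitals (its reverse complement in Slc1a2 and Cyp1a2).
Slc1a2 chr2:102706188-102706355 (+): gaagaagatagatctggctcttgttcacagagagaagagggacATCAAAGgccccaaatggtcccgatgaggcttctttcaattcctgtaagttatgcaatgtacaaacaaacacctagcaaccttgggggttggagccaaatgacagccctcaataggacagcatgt
Cyp2e1 chr7:140763569-140763738 (+): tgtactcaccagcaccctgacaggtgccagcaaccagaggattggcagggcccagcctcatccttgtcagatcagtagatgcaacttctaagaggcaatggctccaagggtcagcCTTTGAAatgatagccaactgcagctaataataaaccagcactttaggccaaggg
Cyp1a2 chr9:57683704-57683905 (-): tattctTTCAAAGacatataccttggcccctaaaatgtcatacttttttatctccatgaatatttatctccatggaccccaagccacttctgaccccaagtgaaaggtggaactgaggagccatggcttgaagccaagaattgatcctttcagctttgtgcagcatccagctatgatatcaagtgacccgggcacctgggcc
The word CTTTGAT lies 207 bases before the RefSeq start of Slc1a2, and CTTTGAA lies 135 bases before that of Cyp2e1 and 244 before that of Cyp1a2. Of 32851 windows that RefSeq gives, 16.88% held at least 1 of the 4 words, with 3.73% for CTTTGAT and 5.14% for CTTTGAA. The windows of Glul, Axin2, Nkd1 and Rnf43 held none of the 4 words. The core GCGTG, bound by the AHR receptor that drives Cyp1a2, was found in the windows of Nkd1 and of the first Rnf43 start, and 32.39% of all windows hold it. Transcripts that start within 500 bases of the window's start took 100% of the counts of Cyp2e1, 99.7% of Cyp1a2, 99.6% of Glul and 74.3% of Axin2. They took 41% of Slc1a2, 23.8% and 21.1% for the pair of Rnf43 windows and 15.7% of Nkd1, so for these genes most counts came from transcripts that start outside a given window. A match is a description of the letters and not a binding site.

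In KO livers 4 of the 10 genes were higher than in WT and 0 were lower (edgeR adjusted p below 0.05), beside 2.56% of all tested genes called higher and 4.19% called lower. They were Rnf43, Notum and Nkd1 of the feedback genes and Slc1a2 of the pericentral genes. In 5 of the 10 every KO library lay above every WT library, Cyp1a2 being the additional one, beside 4.51% of all genes, and in 0 every KO library lay below (5.09% of all genes). The log2 difference was positive in 9 of the 10, with a median of 0.68 beside -0.01 over all genes tested. Since the 10 were chosen with earlier results known, the shares of all genes here and below are a description and not a test of enrichment. With a clock index as a covariate, described further on, 1 of the 10 kept its call, Slc1a2. Txnip itself lost its call in that fit (edgeR adjusted p = 0.104). Whether the clock had a part in any lost call was not tested, as the index and the KO genotype cannot be told apart.

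Between C247S KI and WT 0 of the 10 passed the edgeR threshold in either direction, where 0.0647% of all genes were called higher and 0.0216% lower. At an unadjusted p under 0.05 there were 2, Notum and Cyp1a2, both with the lower mean in C247S KI (9.85% of all genes reach that level). With DESeq2 the count of adjusted calls was 0 as well. None of the 10 separated the groups, beside 0.726% of genes with every C247S KI library above WT and 0.589% with every one below. The median log2 difference was -0.01 over the 10 and 0.00 over all genes, with 4 of 10 positive.

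Against C247S KI, 6 of the 10 were higher in KO and 0 lower, with 4.41% of all genes called higher and 5.85% lower. Cyp1a2 and Cyp2e1 joined the 4 genes above. All KO libraries lay above all C247S KI libraries for 5 of the 10 (Rnf43, Notum, Slc1a2, Cyp1a2 and Cyp2e1; 4.73% of all genes) and below for 0 (4.94%). The median of the 10 was 0.65, and that of all genes was -0.03. Both KO comparisons share the KO libraries, so their values for a gene are set side by side below and are not independent of each other.

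**Figure D1:**
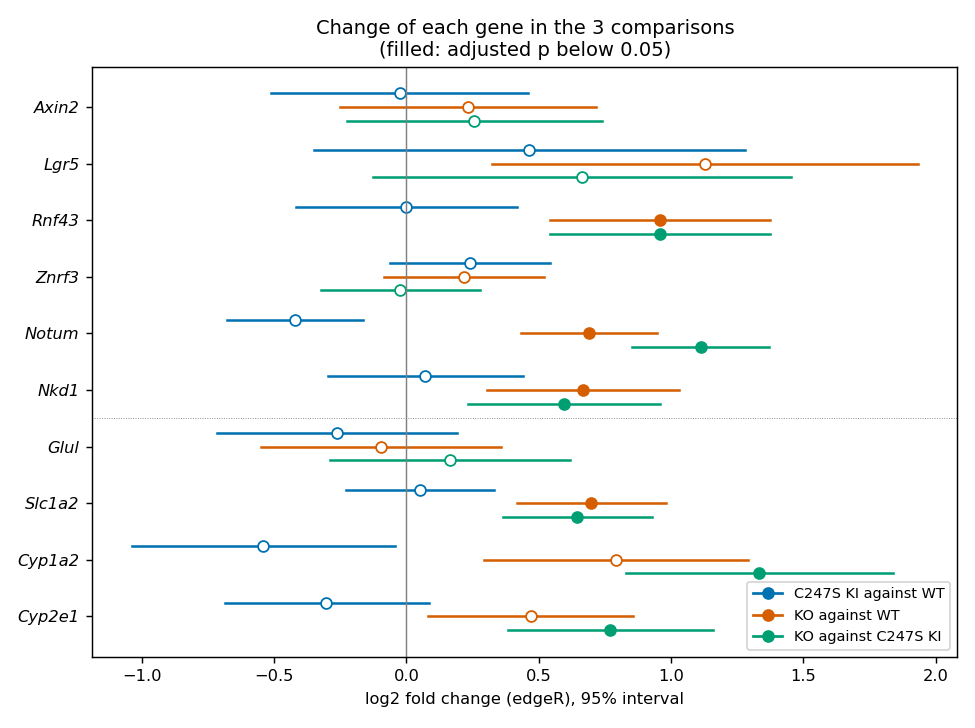
Log2 difference (horizontal axis, with its 95% interval) of each of the 10 genes (vertical axis) in C247S KI against WT, KO against WT and KO against C247S KI from the edgeR fit; filled points have an adjusted p below 0.05. Filled points are on the right of 0 in every case, and the points of C247S KI against WT are all open.

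Among the inhibitors at the cell surface, Rnf43 had the largest rise of the called genes in KO against WT. RNF43, a ubiquitin ligase that removes Frizzled receptors from the membrane, is encoded on chromosome 11 (87662722 to 87735539, plus strand, GRCm38). Its levels were 12.8, 14.1, 8.54, 9.29 and 14.7 CPM in WT 1 to 5, and 9.36, 12.0, 14.6, 9.33 and 14.1 in C247S KI 1 to 5. In KO 1 to 5 they were 17.7, 32.3, 25.5, 17.9 and 22.1 CPM. The lowest KO library was above the highest of the other 10, and WT and C247S KI covered nearly the same range. The log2 difference was 0.96 (SE 0.20, 95% interval 0.54 to 1.37, 1.94-fold, edgeR adjusted p = 0.00888) against WT and 0.96 (SE 0.20, edgeR adjusted p = 0.0057) against C247S KI. Both calls held without any single library and were absent with the clock covariate, where the differences were 0.51 (adjusted p = 0.319) and 0.34 (adjusted p = 0.569).

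The Rnf43 count came from several transcripts. Rnf43-202 took 51.4% of the gene's counts over all libraries, Rnf43-201 21.07%, the retained intron form Rnf43-206 12.03% and Rnf43-209 11.78%. Rnf43-201 was at 0 in WT 4, C247S KI 1, C247S KI 3, C247S KI 5 and KO 4 and reached 288 counts in KO 2, so the split between the coding forms changed from library to library within a genotype. The gene sum is therefore given, and no statement is made on its forms.

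Znrf3, the paralog of Rnf43 with the same activity (chromosome 11, 5276324 to 5444847, minus strand), did not pass in any comparison. Levels were 8.18, 7.90, 5.89, 7.45 and 7.99 CPM in WT, 8.93, 8.91, 6.39, 9.67 and 10.2 in C247S KI, and 9.37, 7.49, 9.91, 7.41 and 9.30 in KO. The 3 groups overlapped, although 4 of 5 C247S KI libraries were above the highest WT library, and WT 3 lay apart below the other 4 WT libraries. The log2 difference was 0.22 in KO against WT (95% interval -0.09 to 0.52, edgeR adjusted p = 0.389) and -0.02 in KO against C247S KI (-0.32 to 0.28, adjusted p = 0.937). The upper bound against WT of 0.52 lies below the lower bound of Rnf43, 0.54, but a test of the difference between the paralogs was not run.

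Notum showed the narrowest spread in KO. NOTUM is a secreted enzyme that removes the lipid from Wnt ligands, from a gene on chromosome 11 (120653788 to 120661175, minus strand). Levels in WT 1 to 5 were 30.4, 43.2, 43.0, 33.1 and 41.6 CPM, in C247S KI 25.7, 31.8, 25.9, 25.6 and 33.8, and in KO 52.8, 64.6, 64.1, 62.7 and 64.4. KO stood above both groups without overlap, KO 1 below the other 4 KO libraries, and C247S KI 1, 3 and 4 lay below the lowest WT library. The coefficient of variation was 8.19% in KO and 15.8% in WT. Notum rose by 0.69 in KO against WT (SE 0.12, 1.61-fold, edgeR adjusted p = 0.00348) and by 1.11 against C247S KI (SE 0.12, 2.16-fold, edgeR adjusted p = 6.81e-05). In C247S KI against WT the difference was -0.42 (SE 0.12, 95% interval -0.68 to -0.17, unadjusted p = 0.00294), which missed the threshold at an edgeR adjusted p of 0.290 and stayed above it under every alternative run (0.0968 to 0.553). With the clock covariate the difference in KO against WT was 0.57 (adjusted p = 0.103). A retained intron form, Notum-201, took 25.24% of its counts, and the calls in KO were the same with protein-coding transcripts alone.

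Nkd1 encodes Naked cuticle 1, which binds Dishevelled inside the cell and inhibits it (chromosome 8, 88521354 to 88594884, plus strand). It was measured at low level, with 58 to 145 counts per library. Levels were 4.19, 4.23, 2.80, 3.46 and 3.97 CPM in WT, 3.005, 4.62, 4.90, 3.32 and 3.80 for C247S KI and 4.54, 6.70, 5.64, 6.17 and 6.61 for KO. KO libraries were above all WT libraries, while KO 1 lay below C247S KI 2 and 3. Nkd1 rose by 0.67 against WT (SE 0.17, edgeR adjusted p = 0.029) and by 0.60 against C247S KI (SE 0.17, edgeR adjusted p = 0.0358). Of the called genes among the 10 it lost its call in the most alternative fits. Against WT it was lost without WT 3, WT 4, KO 2, KO 4 or KO 5 (adjusted p = 0.0545 to 0.0711). Against C247S KI it was lost without C247S KI 1, 4 or 5 or KO 2, 3, 4 or 5 (adjusted p = 0.0587 to 0.0902). It was also lost with the clock covariate (0.37, adjusted p = 0.449, and 0.19, adjusted p = 0.760), and against C247S KI with no count filter (adjusted p = 0.0566) and in a fit of 2 groups (adjusted p = 0.0502).

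Axin2, a scaffold of the beta-catenin destruction complex and the target most used to read the pathway (chromosome 11, 108920349 to 108950783, plus strand), did not pass in any comparison. Levels were 6.99, 6.83, 3.67, 4.50 and 6.97 CPM in WT, 3.35, 7.90, 5.08, 6.74 and 5.47 for C247S KI and 5.70, 6.47, 7.71, 5.44 and 8.74 for KO. The groups overlapped throughout. The log2 difference in KO was 0.23 against WT (SE 0.23, 95% interval -0.25 to 0.71, edgeR adjusted p = 0.586) and 0.26 against C247S KI (95% interval -0.23 to 0.74, adjusted p = 0.496). These intervals contain 0 and also hold differences as large as that of Nkd1. A processed transcript, Axin2-203, took 24.41% of the counts.

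Lgr5, the R-spondin receptor that marks pericentral hepatocytes (chromosome 10, 115450311 to 115587780, minus strand), was the lowest of the 10 per transcript length, with 14 to 102 counts per library. Levels were 0.88, 3.71, 0.676, 1.62 and 1.93 CPM in WT, 2.66, 2.46, 1.71, 1.35 and 4.05 in C247S KI, and 3.68, 3.33, 2.71, 4.66 and 5.18 in KO. WT 2 lay among the KO libraries and the other 4 WT libraries below all of them, and the WT coefficient of variation was 68.4%. The log2 difference in KO against WT was 1.13 (SE 0.38, 95% interval 0.32 to 1.93, edgeR adjusted p = 0.0818), the widest interval of the 10 in that comparison. It was called without WT 2 (1.63, adjusted p = 0.015) and with DESeq2 (1.14, adjusted p = 0.0325). Against C247S KI it was 0.66 (adjusted p = 0.265), and with the clock covariate that value turned to -0.54 (adjusted p = 0.597).

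**Figure D2:**
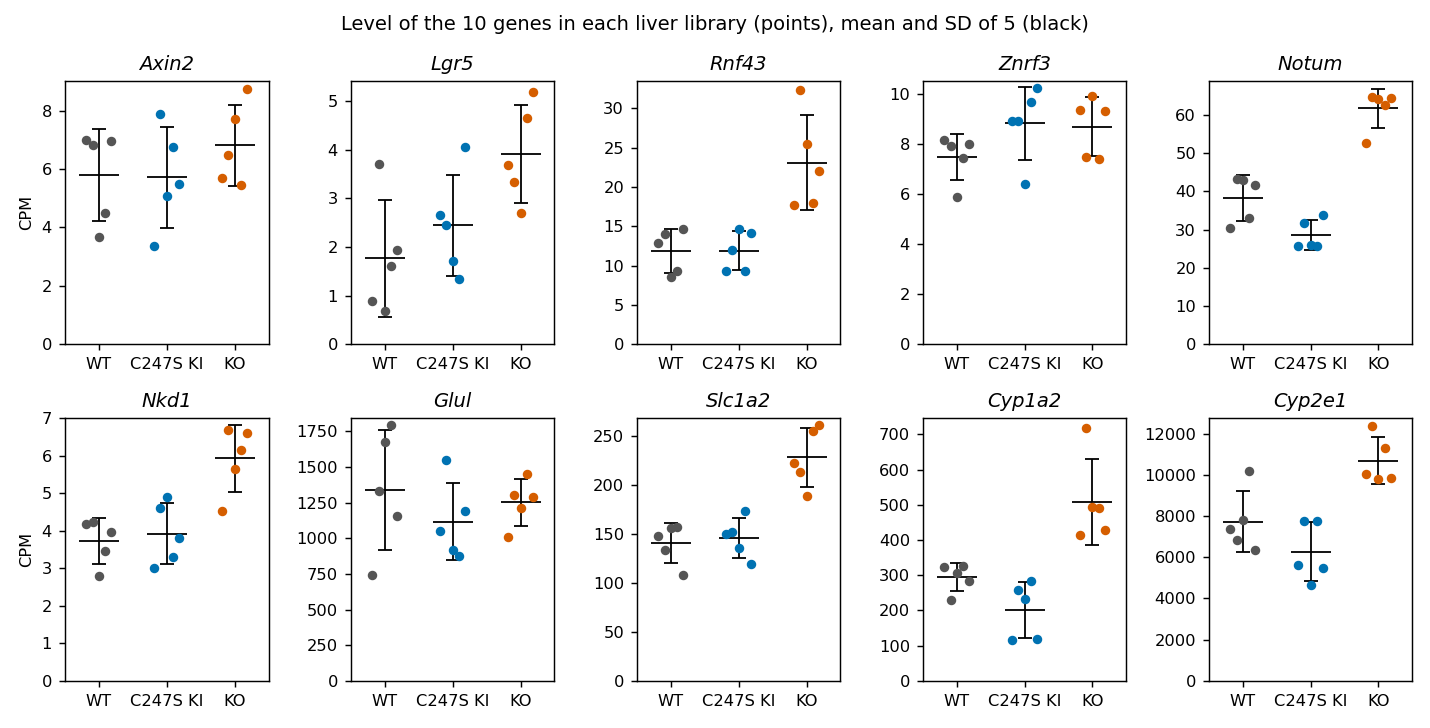
CPM (vertical axis, from 0, one panel per gene) in each library by genotype, points being libraries and black bars the mean and SD of 5. In Rnf43, Notum, Slc1a2 and Cyp1a2 all KO points are above those of both other groups, while Axin2, Znrf3 and Glul overlap.

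Of the innermost pericentral genes, Slc1a2 rose and Glul did not pass. SLC1A2 is the glutamate transporter GLT-1, from a gene on chromosome 2 (102658659 to 102790784, plus strand). Levels in WT 1 to 5 were 149, 134, 156, 157 and 109 CPM, in C247S KI 150.1, 152, 136, 174 and 119, and in KO 223, 214, 189, 255 and 261. The lowest KO library was above the highest of the 10 others, C247S KI 4. Slc1a2 rose by 0.70 against WT (SE 0.13, 1.62-fold, edgeR adjusted p = 0.00575) and by 0.65 against C247S KI (SE 0.13, edgeR adjusted p = 0.00588). The call against WT held in 21 of 21 alternative fits, clock covariate included (0.87, adjusted p = 0.0261), and the call against C247S KI in 20, the clock covariate being the exception (0.88, adjusted p = 0.0656). Slc1a2-202 took 58.59% of its counts, with group shares of 55.23% in WT, 62.21% for C247S KI and 58.33% for KO.

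Glul encodes glutamine synthetase, which takes up ammonia in the last hepatocytes before the central vein (chromosome 1, 153899944 to 153909723, plus strand). Levels were 740, 1331, 1677, 1793 and 1154 CPM in WT, 1049, 1552, 921, 873 and 1191 for C247S KI and 1007, 1301, 1211, 1451 and 1289 for KO. WT spanned the range of both other groups, from WT 1 at the bottom to WT 4 at the top, with a coefficient of variation of 31.5% beside 13.0% in KO. The log2 difference was -0.10 in KO against WT (SE 0.22, 95% interval -0.55 to 0.36, edgeR adjusted p = 0.827) and 0.16 against C247S KI (-0.29 to 0.62, adjusted p = 0.660). Whether Glul and Slc1a2 differ from each other in their response was not tested.

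Cyp1a2 had the largest difference between KO and C247S KI among the 10. CYP1A2, a cytochrome P450 that oxidises caffeine and aromatic amines, is encoded on chromosome 9 (57676937 to 57683703, minus strand). Levels were 323, 230, 307, 327 and 283 CPM in WT, 115, 259, 234, 284 and 119 for C247S KI and 415, 717, 492, 492 and 428 for KO. KO stood above all 10 other libraries, and C247S KI 1 and 5 were well below all WT libraries while the other 3 lay within the WT range. Cyp1a2 rose by 1.33 in KO against C247S KI (SE 0.24, 2.52-fold, edgeR adjusted p = 0.00236), a call held in 21 of 21 alternative fits. Against WT the difference was 0.79 (SE 0.24, 95% interval 0.29 to 1.29, edgeR adjusted p = 0.0531), just outside the threshold. It was called in 6 of 21 alternative fits, among them DESeq2 (adjusted p = 0.0149) and the fit of KO and WT alone (adjusted p = 0.00734). In C247S KI against WT it was -0.54 (SE 0.24, 95% interval -1.04 to -0.04, edgeR adjusted p = 0.482).

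Cyp2e1, the ethanol-inducible P450 (chromosome 7, 140763739 to 140774987, plus strand), was the most abundant of the 10. Levels were 7384, 6856, 7806, 10175 and 6369 CPM in WT, 5623, 7778, 4644, 7761 and 5495 for C247S KI and 10050, 12382, 9800, 11316 and 9864 for KO. WT 4 lay among the KO libraries, the other WT libraries and every C247S KI library below all of them. Cyp2e1 rose by 0.77 against C247S KI (SE 0.18, 1.71-fold, edgeR adjusted p = 0.0141). With the clock covariate that call was lost (0.97, adjusted p = 0.139). Against WT the difference was 0.47 (SE 0.18, 95% interval 0.08 to 0.85, edgeR adjusted p = 0.129), called with DESeq2 alone (adjusted p = 0.0451).

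Scaled by transcript length, so that genes can be compared, the 10 fell in a wide order. The mean over all 15 libraries, in transcripts-per-million (TPM) from annotated lengths, was 6867 for Cyp2e1, 704 for Glul, 261 for Cyp1a2, 68.4 for Slc1a2 and 38.7 for Notum. The other feedback genes followed with 7.92 TPM for Rnf43, 3.18 for Axin2, 3.11 for Nkd1, 2.19 for Znrf3 and 1.06 for Lgr5. Ranges over the 15 libraries did not touch between Cyp2e1 and Glul, between Cyp1a2 and Slc1a2, or between Notum and Rnf43. The other neighbours in the order overlapped, Axin2 (1.87 to 4.29) and Nkd1 (1.96 to 4.62) almost wholly. The order was the same in each genotype except for this pair: Axin2 had the higher mean in WT (3.11 against 2.68 TPM) and C247S KI (3.10 against 2.63), and Nkd1 in KO (4.03 against 3.32). On the length scale Notum was thus the most abundant of the 6 feedback genes in these livers.

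Within a genotype the 10 genes did not vary as 1 block. After each group's mean of log2 CPM was taken out, 26 of 45 pairs had a positive Pearson r over the 15 libraries, with a median of 0.05. Rnf43 and Nkd1 had the highest value (r = 0.75, rho = 0.73), followed by Axin2 and Nkd1 (r = 0.64), Notum and Glul (r = 0.59) and Slc1a2 and Cyp2e1 (r = 0.59). Rnf43 and Slc1a2, both higher in KO, had the lowest (r = -0.71, rho = -0.72): among libraries of 1 genotype, those with more Rnf43 tended to have less Slc1a2. These values are descriptions over libraries that share depth and tissue composition.

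**Figure D3:**
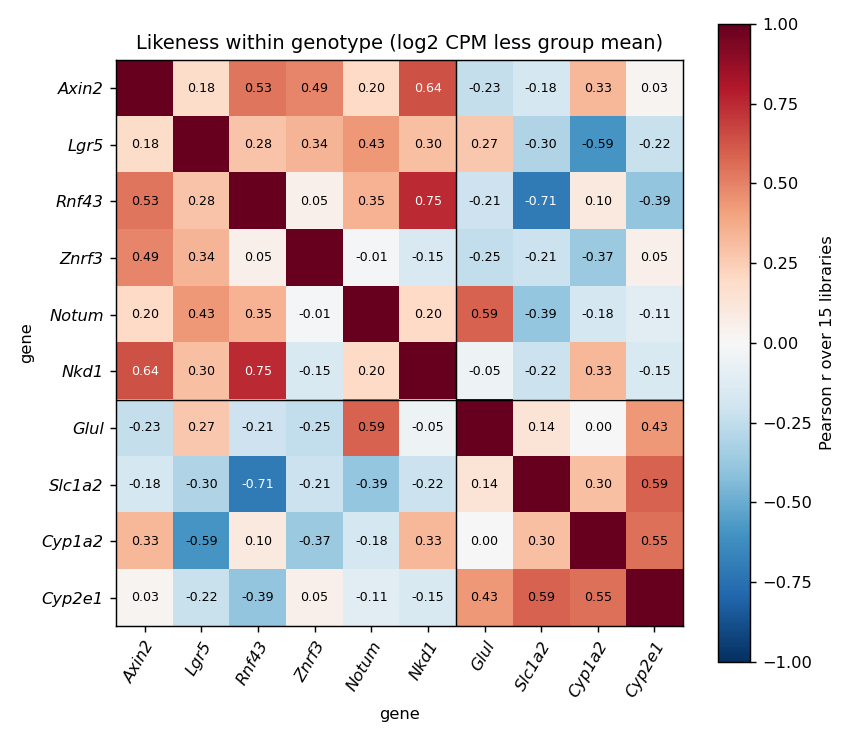
Pearson r over 15 libraries for each pair of the 10 genes (both axes), from log2 CPM less the group mean, colour running from -1 (blue) to 1 (red). Axin2, Rnf43 and Nkd1 form a red corner, and the cell of Rnf43 and Slc1a2, at -0.71, is the deepest blue.

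Searched over 12285 genes with a mean of at least 1 CPM, the gene most like Rnf43 within genotype was Cspg5 (r = 0.92). Nr1d1 (r = 0.89, rho = 0.92), the clock repressor REV-ERB alpha, and Zfp324 (r = 0.89, rho = 0.90) followed it. For the rest of the 10 only the nearest gene is named. For Nkd1 the nearest was Dguok (r = 0.94), for Axin2 Cyp2d38-ps (r = 0.91), for Lgr5 Gnpda1 (r = 0.88), for Znrf3 Ralgapb (r = 0.95) and for Notum Lrrc29 (r = 0.91, with rho = 0.92). For Glul it was Slc25a10 (r = 0.91), for Slc1a2 Gstk1 (r = 0.88), for Cyp1a2 Chrna2 (r = 0.88) and for Cyp2e1 Ppp3ca (r = 0.90). The 10 were left out of the search, and Nr1d1 is also a gene of the clock index below. Each gene named was picked from the top of 12285 over 15 libraries, and such a search by itself favours high values.

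A clock index was higher in every KO library than in any other library. Of 13 clock genes tested, 2 were higher and 0 lower in KO against WT (Dbp and Ciart), beside 2.56% and 4.19% of all tested genes. In KO against C247S KI 5 were higher and 4 lower (4.41% and 5.85% of all genes). In C247S KI against WT 0 passed (0.0647% and 0.0216% of all genes). The index was the mean log2 CPM of Dbp, Ciart, Per2, Per3 and Nr1d1 less that of Arntl, Clock, Npas2 and Nfil3. It was 1.75 to 3.11 in WT, 1.14 to 2.51 for C247S KI and 3.15 to 3.998 for KO. The lowest KO library, KO 1 (3.151), lay only just above WT 2 (3.113). Npas2 was below the count filter, with 1 to 15 counts per library in WT. Per1, Nr1d2, Tef, Bhlhe41 and Cry1 were tested but are not part of the index. The clock genes, like the other lists, were chosen with earlier results of these data known. Dbp and Ciart, called above, are in the index, so its separation of KO is a description. Since no KO library overlapped the others, the index and the KO genotype cannot be told apart. Dbp, a clock output gene, rose by 1.09 in KO against WT (edgeR adjusted p = 0.0123). With the index as a covariate 1 of the 10 genes passed in KO against WT, Slc1a2. In KO against C247S KI 2 passed, Notum and Cyp1a2. Over all genes 182 passed in place of 939, and 129 in place of 1427. Txnip, the gene knocked out, also lost its calls with the covariate. Its log2 difference was -1.2 against WT (edgeR adjusted p = 0.104) and -0.996 against C247S KI (adjusted p = 0.230). Among the 10 genes, in KO against WT, the difference of Rnf43 went from 0.96 to 0.51 with the covariate. That of Slc1a2 went from 0.70 to 0.87. Whether the clock had a part in any lost call was not tested. In both KO comparisons Slc1a2, Cyp1a2 and Cyp2e1 had a higher value in that fit than without the covariate, and Glul and each of the 6 feedback genes a lower one.

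The counts in the gene lists that follow stand beside 2.56% of all tested genes called higher and 4.19% lower in KO against WT, and 4.41% higher and 5.85% lower in KO against C247S KI. In lists of this size those shares come to few genes or none, so a count of 0 or 1 is near the background and is no result about a list. Of 11 genes for Wnt and R-spondin ligands and their release, 8 were tested, and in KO 0 were higher and 1 was lower in each comparison. That gene was Wnt9b, a ligand of the central vein endothelium, with means of 1.72 CPM in WT, 1.66 for C247S KI and 0.844 for KO, and all KO libraries below all others. It fell by 1.02 against WT (SE 0.25, edgeR adjusted p = 0.0196) and by 0.97 against C247S KI (adjusted p = 0.0194). It was measured at 13 to 52 counts per library, and the first call was lost without WT 3 or KO 2 (adjusted p = 0.0596 and 0.063). The call against C247S KI was lost without C247S KI 1, KO 2 or KO 4 (0.0521 to 0.0623). Wnt2, the other main ligand there, had means of 2.96 CPM in WT, 1.72 for C247S KI and 2.41 for KO (KO against WT -0.30, adjusted p = 0.515). Rspo3, the R-spondin of the central vein, had means of 4.06, 3.54 and 3.82 CPM (KO against WT -0.09, adjusted p = 0.798).

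Of 7 central vein endothelial markers, which include these 3 ligands, 2 were lower in KO than in WT (4.19% of all genes), Wnt9b and Thbd, thrombomodulin (23.6 ± 7.24 to 8.57 ± 2.24 CPM, SD, n = 5; log2 difference -1.46, edgeR adjusted p = 0.00118). Summed, the list was 42.3 to 66.5 CPM in WT, 37.6 to 53.6 for C247S KI and 30.2 to 38.3 for KO, and none of its members was at 0 in all libraries. Thbd had the highest mean of the list in WT, and its fall made the largest part of the difference between those sums. The list had 2 of 7 positive in KO against WT, and Selp had the higher mean in KO (6.84 against 5.73 CPM). Of 11 sinusoidal endothelial markers 2 fell against WT, Lyve1 (-1.41) and Pecam1 (-0.80), while 4 of the 11 had a positive log2 difference. Their sums overlapped, at 154.7 to 383.2 CPM in WT and 182.9 to 311.8 for KO. Against C247S KI 8 of the 11 were positive, with a median of 0.33. The part of these endothelial markers in the levels of the 10 genes was not tested.

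Of 13 receptor genes 11 were tested, and Fzd8, a Frizzled receptor, was the 1 that rose in KO against WT, from 12.0 ± 1.44 to 21.2 ± 5.53 CPM (SD, n = 5). Its log2 difference was 0.82 (SE 0.15, edgeR adjusted p = 0.00416), and in KO against C247S KI it was 0.94 (adjusted p = 0.00114), with no overlap in either. Lrp6, the co-receptor, was lower in KO than in C247S KI (-0.60, adjusted p = 0.0248), a call lost without C247S KI 1, 4 or 5 or KO 2, 4 or 5 (adjusted p = 0.0618 to 0.0855). Among 18 tested transducers of 19, Bcl9l, a beta-catenin coactivator, rose against WT (0.48, adjusted p = 0.0492; lost without any 1 library but WT 5, adjusted p = 0.057 to 0.126), and Gsk3b was lower in KO than in C247S KI (-0.45, adjusted p = 0.0297; lost in 8 of 10 fits without 1 library, C247S KI 3 and KO 1 excepted). Ctnnb1, beta-catenin itself, had means of 186 CPM in WT, 184 for C247S KI and 176 for KO (adjusted p = 0.645 against WT). Tcf7l2, the main TCF factor of liver, had 8.63, 10.5 and 12.5 CPM, with all KO libraries above WT and a log2 difference of 0.53 that missed the threshold (edgeR adjusted p = 0.0746).

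Other targets and inhibitors of the pathway went both ways: of 13 tested, 2 rose and 1 fell in KO against WT, beside 2.56% and 4.19% of all genes. The secreted inhibitors Dkk4 and Wif1 rose by 2.17 (adjusted p = 0.0279) and 2.20 (adjusted p = 0.0392) from means of 0.295 and 0.238 CPM, so that the sizes rest on 1 to 10 counts per WT library. The Dkk4 call was lost without WT 2, WT 3, WT 5, KO 1, KO 4 or KO 5 (adjusted p = 0.0509 to 0.0657), and that of Wif1 without WT 1, WT 2, WT 4, WT 5, KO 2 or KO 3 (0.054 to 0.145). Ccnd1, cyclin D1 and a known target, fell from 31.8 ± 8.38 to 11.6 ± 1.55 CPM (log2 difference -1.46, edgeR adjusted p = 0.000416). In KO against C247S KI the counts were 2 higher, Dkk4 and Wif1, and 2 lower, Ccnd1 and Prox1. The calls of Dkk4 and Prox1 were lost in 8 and 9 of 10 fits without 1 library (adjusted p = 0.0528 to 0.144), and that of Wif1 without C247S KI 1, C247S KI 5 or KO 2. Sp5, Tbx3, Myc and Cldn2 did not pass in either KO comparison.

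Pericentral genes outside the 10 did not move together in KO against WT: of 26, 2 rose and 3 fell (2.56% and 4.19% of all genes), and their median was 0.04. Cyp2a5, the coumarin hydroxylase, rose by 1.11 (adjusted p = 0.0285; lost without WT 2, WT 5, KO 1, KO 2 or KO 4, 0.0524 to 0.0687) and Gulo, the last enzyme of vitamin C synthesis, by 0.56 (adjusted p = 0.0478; lost without any 1 library, 0.0623 to 0.112). Cyp3a11 fell by 2.54, Gstm3 by 1.82 and Aldh1a1 by 0.63. The calls of Cyp3a11 and Gstm3 were lost only with the clock covariate (edgeR adjusted p = 0.0948 and 0.101). Cyp3a11 ranged widely, from 182 to 1332 CPM in WT and from 66.4 to 143 for KO. The Aldh1a1 call was lost without any 1 library but WT 1 and WT 5 (adjusted p = 0.0564 to 0.124). Against C247S KI 6 rose (4.41% of all genes), led by Cyp2c37 (1.41, adjusted p = 0.000868), Cyp2a5 (1.83, adjusted p = 0.00107) and Akr1c6 (0.99, adjusted p = 0.00342), and Gstm3 fell (lost in 7 of 10 fits without 1 library), with a median of 0.35. Between C247S KI and WT 0 of the 26 passed, 7 were positive, and the median was -0.46. The list's medians of 0.04 and 0.35 in the KO comparisons stand beside 0.68 and 0.65 for the 10 genes, which were chosen with results in view.

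Periportal genes, which mark the opposite end of the lobule, had 0 higher and 4 lower of 21 in KO against WT (Ctsc, Hsd17b13, Apoa4 and Aldh1b1), beside 2.56% and 4.19% of all genes, with a median of -0.24. Against C247S KI 1 rose, Hsd17b6 (adjusted p = 0.0262, lost in 5 of 10 fits without 1 library), and the same 4 fell (4.41% and 5.85% of all genes), with a median of -0.12. Cyp2f2, the periportal P450, had means of 818 CPM in WT, 724 for C247S KI and 666 for KO and did not pass. Of 10 hepatocyte transcription factors 0 passed in any comparison.

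Of 6 targets of AHR, the receptor known for inducing Cyp1a2, 5 were tested, 0 rose and 2 fell in KO against WT, where 2.56% and 4.19% of all genes did. Tiparp, its feedback inhibitor, fell by 1.19 (11.6 ± 2.32 to 5.12 ± 1.09 CPM, SD, n = 5, edgeR adjusted p = 0.00219) and by 1.04 against C247S KI (adjusted p = 0.00287), without overlap. Nqo1 fell by 0.74 against WT (adjusted p = 0.0438), a call lost without WT 2, WT 3, WT 4, KO 2, KO 3 or KO 5 (0.0638 to 0.097). Cyp1a1, the neighbour and closest paralog of Cyp1a2, was at 0.808 CPM in WT, 0.485 for C247S KI and 0.575 for KO and did not pass, and Ahr itself was at 43.2, 46.4 and 44.8 CPM. Of 12 genes of glutamate and glutamine handling 0 rose and 1 fell in each KO comparison, counts near the background, the neutral amino acid transporter Slc1a4, which fell by 1.34 against WT (adjusted p = 0.00519).

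**Figure D4:**
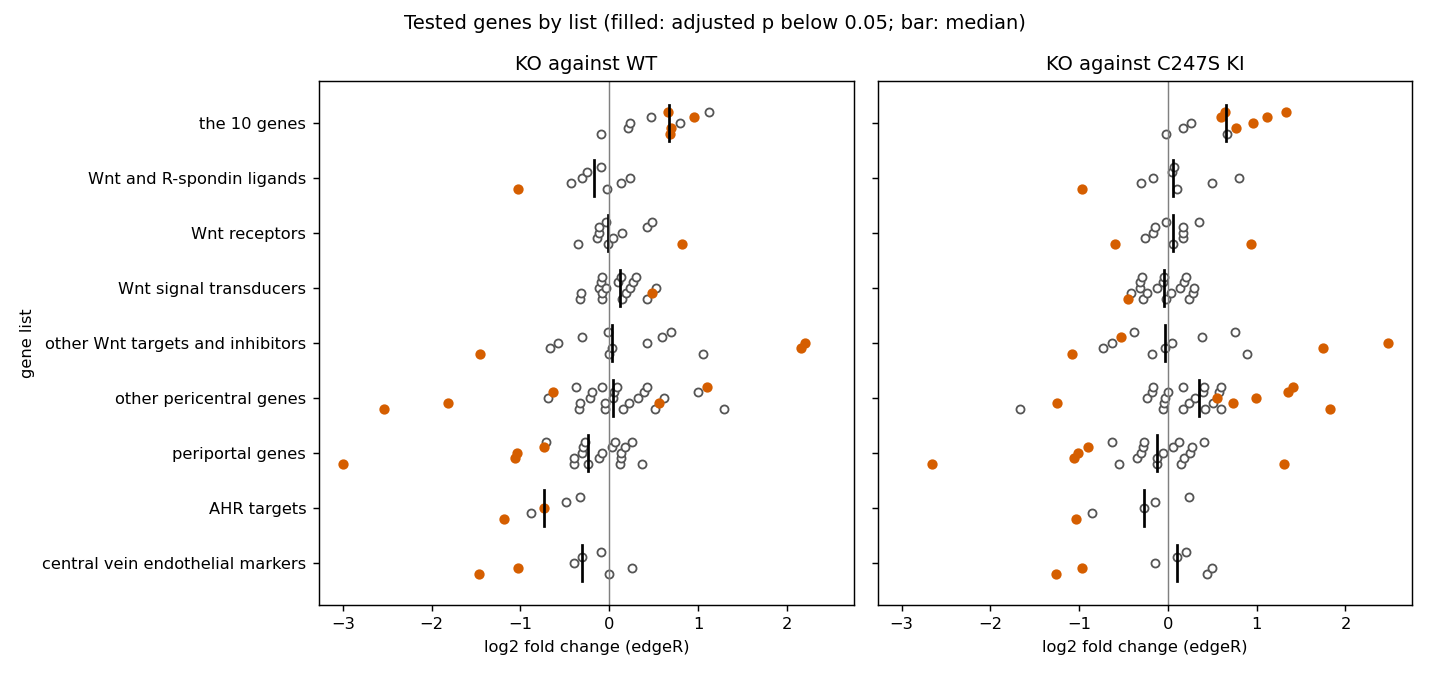
Log2 difference (horizontal axis) of each tested gene of 9 groups (vertical axis) in KO against WT on the left and KO against C247S KI on the right; filled points have an adjusted p below 0.05 and the bar is the median. The bar of the 10 genes stands at 0.68 and 0.65, and those of the ligands, receptors and transducers lie between -0.17 and 0.12.

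Markers of other cell types were summed per library, and 0 of them were called higher in KO, which is near the 2.56% and 4.41% of all genes. Summed cholangiocyte markers were 35.3 to 53.8 CPM in WT, 46.9 to 121.9 for C247S KI and 25.6 to 38.6 for KO, with Sox9 and Spp1 lower in KO than in C247S KI among 6 tested. Kupffer cell markers summed to 107.3 to 300.8, 52.2 to 138.1 and 70.7 to 271.8 CPM and had 0 of 7 called. Stellate cell markers had 1 of 7 lower in KO against WT, Col3a1, and tested lymphocyte markers 1 of 3, Ms4a1, calls lost in 6 and 8 of 10 fits without 1 library. The 4 proliferation markers had 0 called. No marker of these lists was at 0 in all libraries, and what these cells contribute to the 10 genes was not tested.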

How the data were processed

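The authors deposited estimated counts per transcript, as whole numbers, made with kallisto 0.50.1 after Trimmomatic 0.39, per the submitters' processing notes, which also name DESeq2 and mm10 (the transcript set: not given in the sources used here). Reads shared by transcripts were already apportioned, so genes with close copies are uncertain. Transcripts were matched to GENCODE M21 (GRCm38) without version (114331 of 115911, 98.64%; the rest held 0.366% to 0.459% of a library) and summed per symbol; 36 symbols joined more than 1 gene ID.

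Groups came from the sample titles. All 15 libraries entered 1 edgeR 4.0.16 fit in R 4.3.3 (filterByExpr by group with minimum count 10 and total 15, TMM factors, quasi-likelihood test), with Benjamini-Hochberg adjustment over 13916 genes and a threshold of 0.05. The standard error is the log2 difference over the root of F. CPM uses TMM-scaled totals, and log2 CPM a prior count of 2. Alternatives were RLE and upper-quartile factors, DESeq2 1.42.0, limma-voom (limma 3.58.1), all genes with a count, only genes with a mean count of 50 or more, the 2 groups alone, a replicate block, protein-coding transcripts alone, each library left out, 3 libraries left out, and a clock covariate. The procedure was tested on simulated data. Figures used Python 3.11.15 and matplotlib 3.10.9.

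The 10 genes and all lists were chosen with earlier results of these data known. Named beside the 10 were Txnip, Wnt2, Wnt9b, Rspo3, Ctnnb1, Tcf7l2, Cyp1a1 and Ahr, up to 3 called genes with the lowest p per list and comparison, and the genes most like each member within genotype. Other called genes of short lists, and Sp5, Tbx3, Myc, Cldn2 and Cyp2f2, were named after their values were seen. Promoter windows are RefSeq's; Lgr5, Znrf3 and Notum had no entry.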

Additional observations from a re-analysis of the deposited data

Results flagged for a closer look

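In a group of 5 libraries a value stood apart where its gap to the nearest other library, divided by the group's range, was above 0.71, and 30 groups (10 genes in 3 genotypes) were examined. Chance alone gives about 1 in 20 such groups. Znrf3 in WT 3 was at 5.89 CPM, below the other WT libraries at 7.45 to 8.18 (gap over range 0.715). Notum in KO 1 was at 52.8 CPM, below the other KO libraries at 62.7 to 64.6 (gap over range 0.851), and it was still above every WT and C247S KI library.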

How the results depend on the processing

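Over the 21 alternative fits of each comparison, the count of the 10 genes past the threshold in C247S KI against WT was 0 in all. In KO against WT it was 4, with 7 under DESeq2, 1 with the clock covariate, 3 to 5 without 1 library and 5 with the 2 groups alone, no count filter, the replicate block, genes of a mean count of 50 or more, protein-coding transcripts alone or 3 libraries left out. In KO against C247S KI it was 6, with 2 under the clock covariate, 5 with no count filter or the 2 groups alone and 5 to 6 without 1 library. The count over all genes ranged from 4 to 65 around 12 in C247S KI against WT, with 65 under DESeq2. In KO against WT it ranged from 182 to 1542 around 939. There it was 1493 under DESeq2, 182 with the clock covariate and 1542 with 3 libraries left out. It was 1291 with the 2 groups alone, 1046 with the replicate block and 723 with no count filter. In KO against C247S KI it ranged from 129, with the clock covariate, to 2272 around 1427. Cyp1a2 in KO against WT was also called with no filter (adjusted p = 0.0484), a mean count of at least 50 (0.0467) and protein-coding transcripts alone (0.0486). It was called as well with C247S KI 3, C247S KI 5 and WT 1 left out (0.0348). These 3 libraries were set by hand, and no rule for the choice was recorded.

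Signs turned only for differences that were not called. In C247S KI against WT, Axin2 was 0.067 with protein-coding transcripts, 0.094 with the clock covariate, 0.13 without the 3 libraries and -0.17 to 0.13 without 1 library. Rnf43 there was 0.001 with limma-voom, 0.01 with a mean count of at least 50, 0.00 in the fit of 2 groups, 0.006 with protein-coding transcripts, 0.17 with the clock covariate and -0.10 to 0.089 without 1 library. Nkd1 there was -0.014 to 0.16 without 1 library, and Slc1a2 was -0.01 with the clock covariate and -0.02 to 0.12 without 1 library. With the clock covariate Axin2 was -0.032 in KO against WT and -0.13 in KO against C247S KI, and Lgr5 was -0.54 in the latter. Without 1 library Glul in KO against WT was -0.24 to 0.036, positive without WT 4, and Znrf3 in KO against C247S KI was -0.12 to 0.045. The cause was not tested.

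Same-numbered libraries correlated at -0.14 to 0.38, over 0.1 in 4 of 15 pairs. They were not treated as pairs, but this check cannot settle whether the numbers stand for a shared batch. With the replicate block 5 of the 10 passed in KO against WT, Lgr5 being the addition (1.26, adjusted p = 0.0379), 6 in KO against C247S KI and 0 in C247S KI against WT. Depth limits Lgr5, Nkd1 and Wnt9b, whose counts per library reached at most 102, 145 and 52.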
